A study of Mus musculus with 16 samples.

Results

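Sites at which Oct4 and Sox2 were found together at day 5 of reprogramming were compared with sites at which 1 of the factors was found without the other. The Oct4 list held 4846 summits on chromosomes 1 to 19, X and Y and the Sox2 list held 5793, a summit being the base of highest signal in a ChIP-seq peak. A summit was called co-bound when a summit of the other factor lay within 100 bp. This gave 472 co-bound Oct4 summits and 472 co-bound Sox2 summits, which left 4374 Oct4-alone and 5321 Sox2-alone summits. Co-bound summits paired off without exception: merging them gave 472 sites, each with 1 summit of either factor. The 13 libraries of the series held 226962 summits on these chromosomes.

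Both libraries came from OG2 MEFs, mouse embryonic fibroblasts with a GFP reporter driven by the Oct4 promoter. The cells had been transduced with retroviruses for Oct4, Sox2 and Klf4 (the Oct4-SK cocktail) and were cultured in iCD1, a chemically defined reprogramming medium, with days counted from the change into it. No sort before the ChIP is described, and in such bulk cells fewer cells with a bound site cannot be told apart from weaker binding in every cell. For comparison, 11 further lists were used, each of 1 library: Oct4 at days 1 and 7 and Sox2 at day 1 in Oct4-SK cells, Oct4defSox2 and Sox2 at days 1 and 5 in Oct4defSox2-SK cells, Sox2 at days 1 and 5 in Oct6-SK cells, and Oct4 S151M and Oct6 M151S at day 1. Oct4defSox2 is an Oct4 mutated at its interface with Sox2, Oct6 is a related POU factor, and S151M and M151S exchange a residue between Oct4 and Oct6 that sets how readily each pairs with itself. The Oct6 M151S library is day 1 by its title and carries another day in its other label.

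Each group was 1 library, so differences were not tested against replicates and no p-value is given. Shares carry Wilson 95% intervals and differences between shares carry Newcombe 95% intervals, which cover counting error among summits only. Read depth was not known here, and the methods of the paper name more than 1 Sox2 antibody without assigning them to libraries. The lists held between 1034 summits (Oct4defSox2 at day 5) and 101151 (Oct4 S151M), and a longer list meets more sites of any kind. The score of a summit is the −log10 of the p-value of the peak caller, so scores of different libraries are not on 1 scale, and here they order the summits of 1 library or serve as a minimum.

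Oct4 binds DNA through a POU domain made of a POU-specific part and a homeodomain, and Sox2 binds through an HMG box that bends the DNA. In pluripotent cells the pair occupies composite SoxOct elements, a Sox element followed by an octamer element, in enhancers of genes such as Pou5f1 itself. Oct4 can also bind as a homodimer to the palindromic MORE element and its variant with an extra base in the middle, MORE+1. Sox2 alone recognises a short Sox motif, and Klf4, the other factor of the cocktail, a GC-rich motif.

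The stretches below, from the GRCm38 genome (the same build as mm10), show what the 3 groups look like in sequence. The first 5 are co-bound sites with a SoxOct match in capitals, the next 2 are co-bound sites with only a Sox match in capitals, the following 2 are among the strongest Oct4-alone sites with a MORE match without mismatches in capitals, and the last 2 are the strongest Sox2-alone sites with a Sox match in capitals. Each is named by the nearest start of a coding gene and read 5′ to 3′ on the strand of the match.
Klf13 site: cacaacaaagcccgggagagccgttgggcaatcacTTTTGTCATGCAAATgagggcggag
Sox21 site: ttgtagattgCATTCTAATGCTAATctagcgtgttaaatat
Mreg site: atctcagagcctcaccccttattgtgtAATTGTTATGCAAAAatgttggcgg
Syk site: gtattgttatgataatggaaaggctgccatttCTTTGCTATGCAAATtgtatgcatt
Pou5f1 site: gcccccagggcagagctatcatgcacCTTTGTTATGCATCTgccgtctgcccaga
Palm2 site: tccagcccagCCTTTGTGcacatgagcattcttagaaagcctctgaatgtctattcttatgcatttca
Il6st site: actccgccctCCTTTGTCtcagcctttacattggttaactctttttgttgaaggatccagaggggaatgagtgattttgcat
Lemd1 site: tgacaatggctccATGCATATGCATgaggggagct
Sik3 site: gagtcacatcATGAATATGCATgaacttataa
Sox13 site: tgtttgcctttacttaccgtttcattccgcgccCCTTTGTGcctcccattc
Mobp site: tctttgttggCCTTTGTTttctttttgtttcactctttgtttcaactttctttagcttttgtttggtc
The positions are chr7:63957212-63957271 for the Klf13 site, chr14:118230334-118230374 for Sox21, chr4:57490140-57490207 for Palm2, chr13:112440328-112440409 for Il6st, chr1:132222362-132222396 for Lemd1, chr9:46083816-46083847 for Sik3, chr1:133492681-133492731 for Sox13 and chr9:120149510-120149577 for Mobp, all on the plus strand. On the minus strand lay the stretches of Mreg (chr1:72229158-72229209), Syk (chr13:52562327-52562383) and Pou5f1 (chr17:35504035-35504089).

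Co-bound summits made up 9.74% of the Oct4 list (interval 8.94 to 10.6%) and 8.15% of the Sox2 list (7.47 to 8.88%). Most summits of either factor were far from the other: the median Oct4-alone summit lay 112343 bp from the nearest Sox2 summit, the median Sox2-alone summit 124388 bp from the nearest Oct4 summit, and 78.5% of all Oct4 summits had no Sox2 summit within 10 kb. The spacing within a pair is bounded by the rule and is given as a description. The median was 40.5 bp with quartiles at 20 and 66 bp (25 bp with a limit of 50 bp and 60 bp with a limit of 250 bp), 289 of the 472 pairs (61.2%) lay within 50 bp and 62 within 10 bp, and in 4 pairs, among them the Mfsd6 site, both summits fell on the same base.

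**Figure D1:**
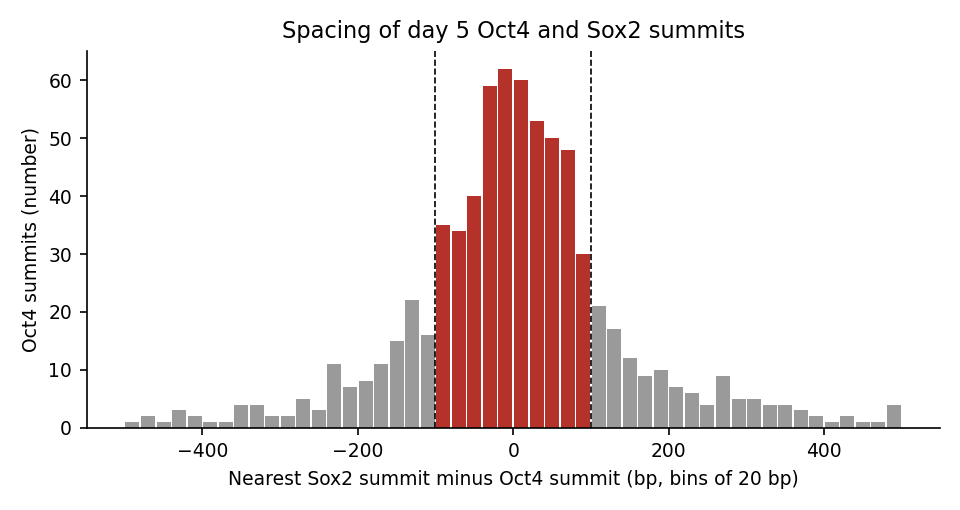
Number of Oct4 summits (vertical axis) by the distance to the nearest Sox2 summit in bp (horizontal axis, bins of 20 bp, out to 500 bp), with co-bound summits in red, others in grey and the 100 bp limits dashed. The counts are highest around 0 and keep falling past the limits, with 175 Oct4 summits between 101 and 250 bp from a Sox2 summit.

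The 100 bp limit cut a falling slope and not a gap. There were 5.64 Oct4 summits per bp of spacing from 26 to 50 bp, 3.28 per bp from 76 to 100 bp, 1.82 per bp from 101 to 150 bp and 0.288 per bp from 251 to 500 bp. Just inside the limit, from 81 to 100 bp, lay 64 Oct4 summits, and just outside, from 101 to 120 bp, lay 36. The Sox2 summit was at the higher coordinate in 238 pairs and at the lower in 230, so on the reference strand neither side was favoured. The Oct4 score differed with distance: the median was 12.8 for Oct4 summits with a Sox2 summit 11 to 25 bp away, 10.4 from 76 to 100 bp, 7.39 from 201 to 250 bp and 9.58 from 10 to 100 kb.

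Co-bound summits were shifted to higher scores in both libraries, with a wide overlap with the summits of 1 factor. The median Oct4 score was 11.1 at co-bound summits (interval of the median 10.4 to 11.9) and 9.58 at Oct4-alone summits (9.46 to 9.58), and the median Sox2 score was 12.0 (11.9 to 12.7) against 8.87 at Sox2-alone summits (8.41 to 9.09). Of the lowest-scoring 25% of Oct4 summits 5.94% were co-bound (71 of 1196), and of the highest-scoring 25% 13.8% (171 of 1237). For Sox2 the share went from 3.52% (51 of 1447) to 14.6% (202 of 1379). A co-bound summit was in the top 25% more often than a summit bound alone, by 11.9 percentage points for Oct4 (7.45 to 16.5) and by 20.7 points for Sox2 (16.1 to 25.3).

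**Figure D2:**
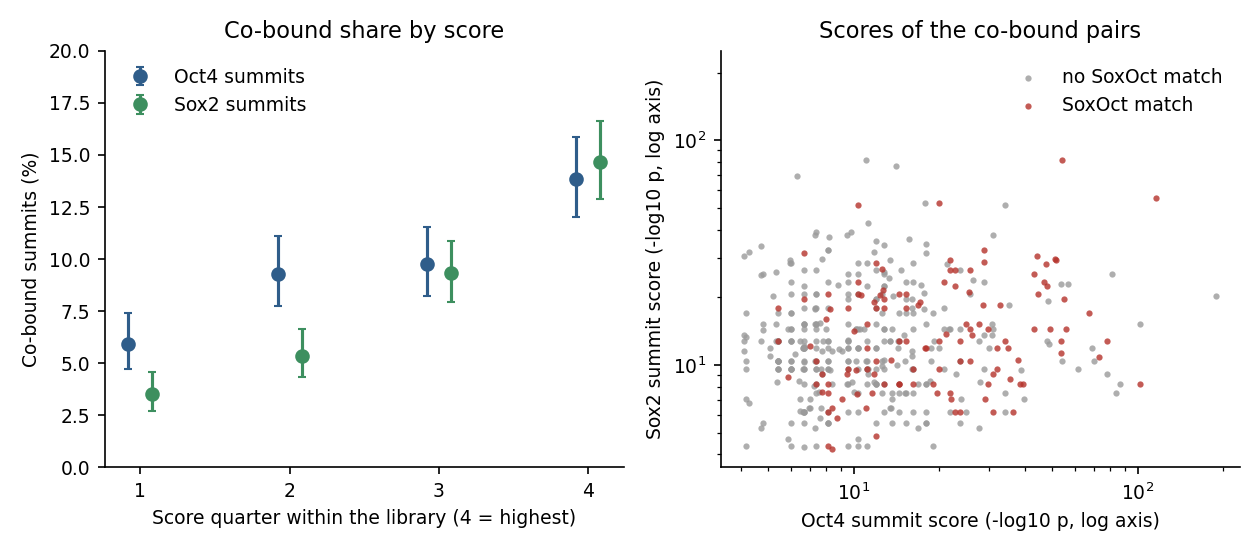
Left, share of summits that were co-bound (%) in 4 score bins of 25% each within the Oct4 (blue) and Sox2 (green) library, with 95% intervals; right, Sox2 score against Oct4 score (−log10 p, log axes) of the 472 co-bound pairs, in red where the window on the Oct4 summit held a SoxOct match. The share rises from 5.94% to 13.8% for Oct4 and from 3.52% to 14.6% for Sox2, while the points of the right panel form a broad cloud.

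The strength of the factors within a pair was nearly unrelated. Across the 472 pairs, which share both libraries, the Spearman correlation of the Oct4 score with the Sox2 score was 0.0883. In 84 pairs both summits were in the top 25% of their library, in 87 only the Oct4 summit was, in 118 only the Sox2 summit and in 183 neither. Most of the very strongest sites were, like most summits, not co-bound, but the single-factor share was lower among them than in the whole lists. Of the top 48 Oct4 summits (the highest 1%) 41 were Oct4-alone, against 4374 of all 4846. Of the top 59 Sox2 summits 48 were Sox2-alone, against 5321 of all 5793.

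Promoter shares of all co-bound and single-factor summits were close, and they differed with the SoxOct match described further on. Of the co-bound Oct4 summits 43 (9.11%) lay in promoters (within 1 kb of an annotated transcript start), 11 (2.33%) in exons, 228 (48.3%) in introns and 190 (40.3%) between genes. The promoter share of Oct4-alone summits was 9.85%, a difference of −0.744 points (−3.20 to 2.31), and that of Sox2-alone summits was 11.3% against 9.53% at co-bound Sox2 summits, a difference of −1.72 points (−4.22 to 1.37). Among summits with a SoxOct match the co-bound share was higher, at 13.7% against 7.38% of Oct4-alone summits (6.32 points, 0.971 to 13.7) and 14.2% against 6.25% of Sox2-alone summits (7.92 points, 0.842 to 15.8). Without a match the differences were −2.96 points (−5.50 to 0.433) and −3.46 points (−6.01 to −0.0513). A coding start within 50 kb was less common at co-bound Sox2 summits (49.6%) than at Sox2-alone summits (56.9%), by 7.27 percentage points with an interval for the difference of −12.0 to −2.58, and the difference from Oct4-alone summits (54.0%) was −4.38 points (−9.10 to 0.354).

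Repeats and the X chromosome held fewer co-bound sites than Oct4-alone sites. The summit lay in repeat-masked sequence at 14.0% of co-bound Oct4 summits and 20.2% of Oct4-alone summits, a difference of −6.25 points (−9.34 to −2.64), whereas co-bound and Sox2-alone Sox2 summits were at 14.2% and 15.1%. The X chromosome held 1 co-bound Oct4 summit of 472 and 59 of 4374 Oct4-alone summits (1.35%), a difference of −1.14 points (−1.56 to −0.113). It held 49 of 5321 Sox2-alone summits (0.921%), and the difference of co-bound Sox2 summits from these was −0.709 points (−1.05 to 0.295). On the autosomes the co-bound share of Oct4 summits ran from 6.91% on chromosome 6 to 13.8% on chromosome 14. GC content of the 201 bp windows was similar at co-bound Oct4 (median 42.8%) and Oct4-alone summits (41.8%) and higher at Sox2-alone (44.8%) than at co-bound Sox2 summits (43.3%).

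SoxOct elements were more frequent at co-bound sites, most clearly against Sox2-alone sites. A match (at most 2 mismatches, either strand, within 100 bp of the summit) was found at 26.3% of co-bound Oct4 summits (124 of 472, interval 22.5 to 30.4%) and at 18.9% of Oct4-alone summits (826 of 4374), a difference of 7.39 points (3.44 to 11.7). Its size depended on the settings, from 3.11 points with 1 mismatch fewer and 3.42 points (0.131 to 6.99) with a limit of 250 bp to 14.3 points with 1 mismatch more and 15.4 points with the 2000 strongest summits of each list. On Sox2 summits it was found at 25.4% of co-bound (120 of 472) and 3.01% of Sox2-alone windows (160 of 5321), a difference of 22.4 points (18.7 to 26.6), and 6.69 points with 1 mismatch fewer to 40.6 points with 1 more. Windows of the same length 2 kb to either side held a match in 0.953 to 1.15% of cases. The share also differed with the spacing: it was 29.1% with a Sox2 summit within 25 bp (43 of 148), 31.2% from 26 to 50 bp (44 of 141), 20.2% from 51 to 100 bp (37 of 183), 12.6% from 101 to 250 bp (22 of 175) and 19.1% beyond (804 of 4199).

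Homodimer elements showed the opposite pattern. MORE or MORE+1, each with at most 1 mismatch to a string that allows A or C at base 4 and, towards its end, G or T before CAT, was found at 21 co-bound Oct4 summits (4.45%) and 602 Oct4-alone summits (13.8%), a difference of −9.31 points (−11.2 to −6.85) over flanks at 0.530% and 0.629%, and −3.90 points with 1 mismatch fewer and −16.9 points with a score of at least 10. It was still more common at co-bound Sox2 summits (16, 3.39%) than at Sox2-alone summits (33, 0.620%). SoxOct and MORE or MORE+1 occurred in the same window at 1 co-bound and 47 Oct4-alone summits. The octamer ATGCAAAT, which a SoxOct match can contain, was found at 7.63% of co-bound and 9.51% of Oct4-alone summits, a difference of −1.88 points (−4.14 to 0.991).

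The Sox motif (CC, then A or T, then TTGT, then any base but A) was about as frequent at co-bound Sox2 summits as at Sox2-alone summits, at 28.2% and 28.4% (difference −0.181 points, −4.24 to 4.21), and at Oct4 summits it was found at 26.9% of co-bound and 11.1% of Oct4-alone windows, a difference of 15.8 points (11.9 to 20.1) over flanks at 4.98% and 6.17%. The Klf motif (GGG, then C or T, then G, then G or T, then GGC) was found at 4.66% of co-bound and 3.04% of Oct4-alone Oct4 summits, a difference of 1.62 points (−0.0372 to 3.96) whose interval lay above 0 under 4 alternatives (1.74 to 3.37 points), and at 4.03% of co-bound and 5.30% of Sox2-alone Sox2 summits (−1.27 points, −2.84 to 0.975). The AP-1 motif (TGACTCA or TGAGTCA), bound by Fos and Jun factors of fibroblasts, was at 11.9% of co-bound and 13.7% of Oct4-alone summits (−1.81 points, −4.62 to 1.57). No POU motif of the 4 searched was found at 67.2% of co-bound Oct4 summits (317 of 472), 64.1% of Oct4-alone summits and 94.7% of Sox2-alone summits, which says only that these strings with these mismatches were not in the window.

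**Figure D3:**
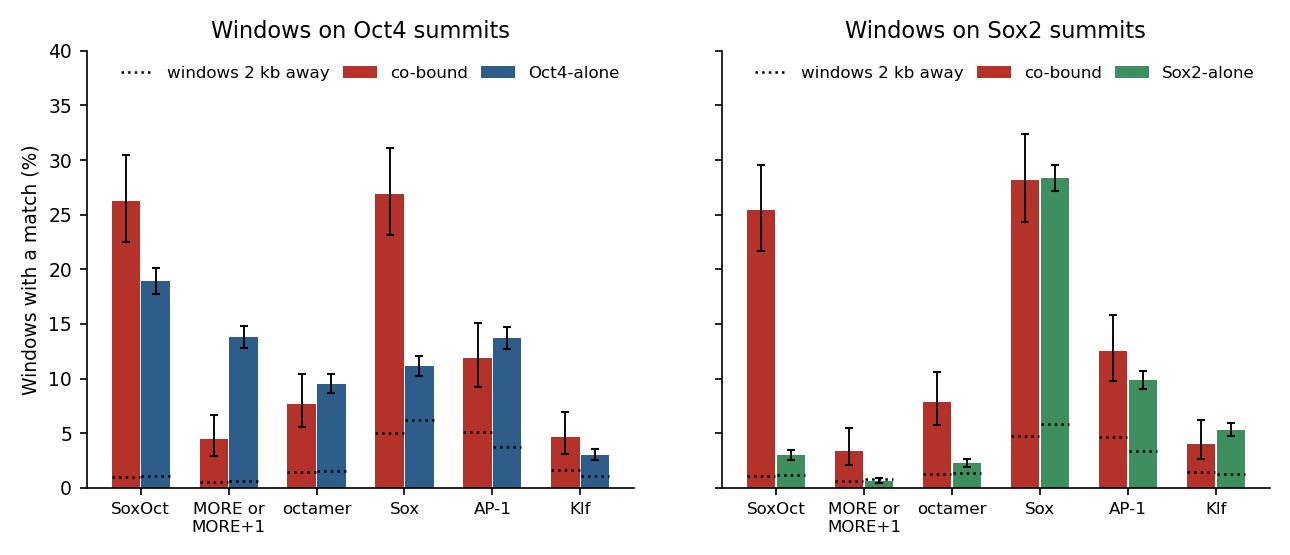
Share of 201 bp windows (%) with a match to each motif, on Oct4 summits (left) and Sox2 summits (right), for co-bound (red) and alone (blue, green) summits, with 95% intervals as bars and the share in windows 2 kb away as dotted lines. SoxOct is higher at co-bound than at alone summits in both panels, at 26.3% against 18.9% and 25.4% against 3.01%, and MORE or MORE+1 is lower at co-bound than at Oct4-alone summits, at 4.45% against 13.8%.

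The order of the summits was, more often than not, that of the Sox and octamer elements. Of the 472 pairs, 129 had a match within 100 bp of either summit, 4 of them exact, 30 with 1 mismatch and 95 with 2. Read along the strand of the match, the Sox2 summit was on the 5′ side of the Oct4 summit, which is the side of the Sox element, in 79 of the 127 pairs whose summits differed (62.2%, interval 53.5 to 70.2%), with a median offset of −17 bp. The interval included 50% with a limit of 50 bp for co-binding (59.3%, 48.7 to 69.1%) and with the 2000 strongest summits of each list (61.9%, 49.6 to 72.9%). The Oct4 summit lay closer to its element than the Sox2 summit did: the median distance was 21.5 bp from the centre of the octamer element for Oct4 and 33.5 bp from the centre of the Sox element for Sox2, and 79 Oct4 summits (61.2%) against 51 Sox2 summits (39.5%) were within 25 bp.

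**Figure D4:**
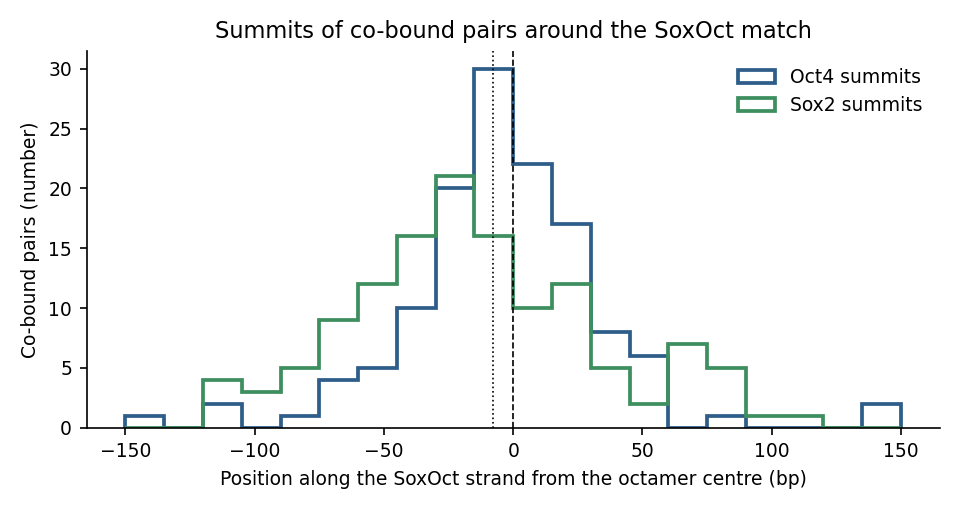
Position in bp of the Oct4 (blue) and Sox2 (green) summits of 129 co-bound pairs along the strand of their SoxOct match, counted from the centre of the octamer element (dashed), with the centre of the Sox element dotted. The Oct4 summits crowd around the octamer element, and the Sox2 summits are spread more widely and towards the Sox side.

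Single sites differed in their order. At the Klf13 site the Oct4 summit (chr7, position 63957254) lay inside the match at 63957247 to 63957261 and the Sox2 summit 32 bp to the 5′ side. At the Sox21 site the summits were 3 bp apart, at 118230361 and 118230364, both just 3′ of the match at 118230344 to 118230358, with the Sox2 summit the further one. The Syk site held a SoxOct match with 1 mismatch and another with 2 mismatches on the other strand, and its Sox2 summit lay 17 bp to the 3′ side of the Oct4 summit along the better match. At the Oct4-alone sites of Lemd1 and Sik3 the MORE match lay 3 bp past and across the Oct4 summit, with no day 5 Sox2 summit of Oct4-SK cells nearer than 21330 and 227964 bp, although a day 5 Sox2 summit of Oct6-SK cells lay within 100 bp at Lemd1.

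Co-bound sites had been bound at day 1 more often than sites of 1 factor. An Oct4 summit of day 1 lay within 100 bp of 62.5% of co-bound Oct4 summits (295 of 472) and 39.2% of Oct4-alone summits, a difference of 23.3 points (18.6 to 27.8), and among Oct4 summits scoring at least 10 it was 14.9 points (9.04 to 20.1), at 75.2% and 60.3%. A Sox2 summit of day 1 lay within 100 bp of 39.2% of co-bound Sox2 summits (185 of 472) and 17.2% of Sox2-alone summits, a difference of 22.0 points (17.6 to 26.6). Counting both day 1 lists at co-bound Oct4 summits, 138 (29.2%) had summits of both factors, 157 (33.3%) only Oct4, 44 (9.32%) only Sox2 and 133 (28.2%) neither. At Oct4-alone summits neither was the case for 57.8%. With windows on Sox2 summits, neither was the case for 29.0% of co-bound and 80.3% of Sox2-alone summits. The groups were set by the presence of both factors at day 5, so these day 1 counts over both factors are a description.

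Binding of Oct4 2 days later was also more frequent at co-bound sites. At day 7 an Oct4 summit lay within 100 bp of 49.8% of co-bound Oct4 summits (235 of 472) and 22.5% of Oct4-alone summits, a difference of 27.2 points (22.6 to 31.9). The SoxOct match split the co-bound sites: 79.8% of those with a match (99 of 124) and 39.1% of those without (136 of 348) were bound at day 7, a difference of 40.8 points (31.3 to 48.6). With a match, the co-bound share exceeded the Oct4-alone share (44.2%, 365 of 826) by 35.6 points (27.0 to 42.6), and without a match by 21.6 points (16.4 to 26.9). Co-bound Oct4 summits with a match also had higher day 5 scores, 60.5% being in the top 25% against 27.6% without, and among Oct4 summits scoring at least 10 the day 7 shares were 70.4% (co-bound) and 37.8% (Oct4-alone).

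In all, 82 co-bound Oct4 summits (17.4%) were also near Oct4 summits of days 1 and 7 and a Sox2 summit of day 1, against 85 Oct4-alone summits (1.94%). Only 12 co-bound Oct4 summits (2.54%) had no summit of any of the other 11 lists within 100 bp, compared with 1040 Oct4-alone summits (23.8%), and 15 co-bound Sox2 summits (3.18%) compared with 2330 Sox2-alone summits (43.8%). The median co-bound Oct4 summit was found in 4 of the other 11 lists and the median Oct4-alone summit in 2. Sox2 was the target of 5 of these lists, and the grouping used the Sox2 list of day 5, so these counts over both factors are a description. Of the day 1 Oct4 summits, 1628 were co-bound in the day 1 lists, and 140 of the 472 co-bound Oct4 summits of day 5 (29.7%) lay within 100 bp of one of them.

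The other cocktails divided the comparison. Sox2 at day 5 in Oct6-SK cells, where Oct6 takes the place of Oct4, lay near 29.2% of co-bound Sox2 summits (138 of 472) and 15.5% of Sox2-alone summits, a difference of 13.7 points (9.65 to 18.1). Sox2 at day 5 in Oct4defSox2-SK cells lay near 40.3% of co-bound (190 of 472) and 38.3% of Sox2-alone summits, a difference of 1.97 points (−2.55 to 6.64). This last comparison turned with the score: among Sox2 summits scoring at least 10 the shares were 45.1% (138 of 306) and 59.7% (1282 of 2147), a difference of −14.6 points (−20.5 to −8.63).

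Oct4defSox2 at day 5 was near 48 co-bound Oct4 summits (10.2%) and 466 Oct4-alone summits (10.7%), a difference of −0.484 points (−3.08 to 2.70) for a list of 1034 summits. Sites with MORE or MORE+1 were met more often by this library, and SoxOct split the Oct4-alone sites but not clearly the co-bound ones. Of Oct4-alone summits it met 34.4% of those with MORE or MORE+1 (207 of 602) and 3.87% of those with SoxOct (32 of 826), while of co-bound Oct4 summits it met 9 of 21 with MORE or MORE+1 and 14 of 124 with SoxOct (11.3%). Of co-bound Oct4 summits without SoxOct it met 9.77% (34 of 348), a difference of 1.52 points (−4.18 to 8.81). With SoxOct the co-bound share was above the Oct4-alone share by 7.42 points (2.71 to 14.3), and without SoxOct the difference was −2.46 points (−5.38 to 1.26). At day 1 Oct4defSox2 met 78.8% of co-bound and 52.2% of Oct4-alone summits, a difference of 26.6 points (22.4 to 30.3).

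**Figure D5:**
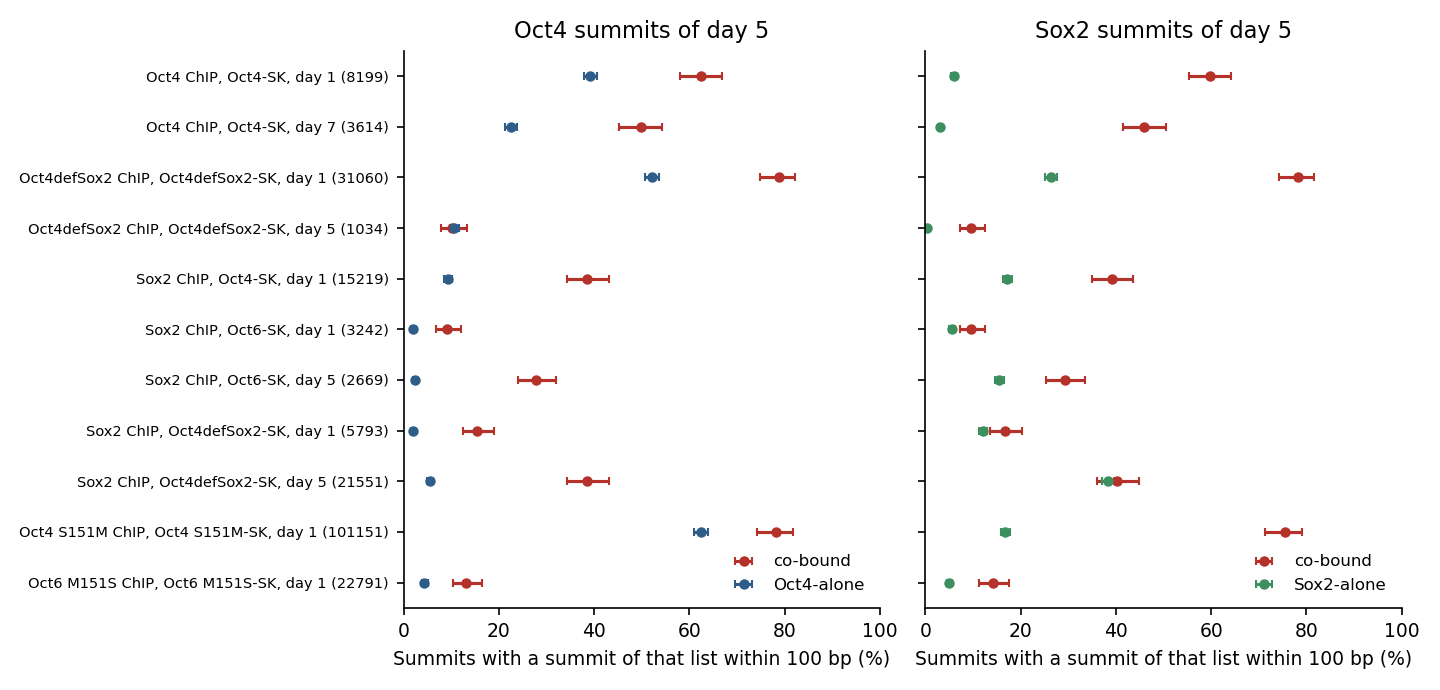
Share (%) of day 5 Oct4 summits (left) and Sox2 summits (right) with a summit of each of the other 11 lists within 100 bp, for co-bound (red) and alone (blue, green) summits with 95% intervals; the number of summits in each list is in brackets. Red points lie to the right of the others for Oct4 at day 7 (49.8% against 22.5%) and overlap for Oct4defSox2 at day 5 (10.2% against 10.7%) and, among Sox2 summits, for Sox2 at day 5 in Oct4defSox2-SK cells (40.3% against 38.3%).

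The Oct6 M151S library, made with another antibody, was also found more often at co-bound sites, at 13.1% of co-bound Oct4 (62 of 472) and 4.37% of Oct4-alone summits, and it was rarer at co-bound Oct4 summits with SoxOct (5.65%) than without (15.8%), by 10.2 percentage points with an interval for the difference of −15.3 to −3.62. Its list reached down to a score of 2.3 with a median of 3.74, whereas the lowest scores of the other 12 lists were 4.00 to 4.12, so it lists summits that are below the minimum of every other library. Without the summits it met, the SoxOct difference between co-bound and Oct4-alone was 10.5 points (6.11 to 15.4) and the day 7 difference 27.2 points (22.1 to 32.2).

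The 10 co-bound sites with the highest mean score percentile lay near Klf13, Sox21, Mreg, BC052040, Palm2, Pcdh9, Mfsd6, Syk, Slc5a7 and Cnpy1, and 6 of them held a SoxOct match within the window. The Klf13 site, 18323 bp from the start of that Krüppel-like factor gene, scored 116 for Oct4 and 55.2 for Sox2. Oct4 scored 103 there at day 1 and 80.5 at day 7, Sox2 15.2 at day 1, and Oct4defSox2 200.3 at day 1 and 22.7 at day 5. It and the Slc5a7 site were the only ones of the 10 with an Oct4defSox2 summit at day 5.

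The Sox21 site, 6668 bp from the start of a Sox-family repressor gene expressed in neural progenitors, scored 53.9 for Oct4 and 81.7 for Sox2. Oct4 scored 77.4 there at day 1 and 48.9 at day 7, and Sox2 72.7 at day 1. Sox2 was also listed there in Oct6-SK cells, at 25.5 on day 1 and 69.8 on day 5, and in Oct4defSox2-SK cells on day 1 at 87.0, but no Sox2 summit of Oct4defSox2-SK cells at day 5 lay within 100 bp. The Syk site, near the gene of a signalling kinase of immune cells, had Oct4 scores of 43.0, 47.6 and 121 at days 1, 5 and 7, each on the scale of its own library. The site near Slc5a7, the choline transporter gene, lay 409069 bp from that start, held none of the 4 POU motifs and was the only one of the 10 without an Oct4 summit at day 7. The Cnpy1 site was the only promoter site of the 10, at 64 bp from a start.

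The highest score of each library lay at a single-factor site, of which there were many more, although median scores were higher at co-bound summits. Among co-bound pairs the highest scores were 189 for Oct4 and 81.7 for Sox2. The strongest Oct4-alone summits were in an intron of Lemd1 (285), in the promoters of Crlf2 (259), a cytokine receptor gene, and Rnf169 (259), a ubiquitin ligase gene, and in introns of Kremen1 (242), which encodes a Wnt co-receptor antagonist, and Sik3 (208), a kinase gene. All 5 held a MORE match, without mismatches to the search string at Lemd1 and Sik3, and all 5 had Oct4 summits at days 1 and 7 and Oct4defSox2 summits at day 5. The 2 strongest Sox2-alone summits, 68314 bp from the start of Sox13 (106) and in the promoter of Mobp (102), a myelin protein gene, held Sox matches and were listed for Sox2 in all 6 Sox2 libraries. The remaining 3 of the strongest 5 lay in exons of Pou5f1 (102) and Sox17 (87.0 and 79.1).

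Exons of factor genes held several Sox2-alone summits. At Pou5f1, which encodes Oct4, the Sox2 summit of score 102 lay 280 bp past the start in an exon, at position 35506298 of chromosome 17, and the co-bound site lay upstream. Exon summits of Sox2-alone type were also found in Sox2 (51.7 and 38.7), in Sox17 (45.4, beside the 2 above) and in Pou3f1, the gene of Oct6 (17.5 and 8.19), genes chosen after their values had been seen. The coding sequences of Oct4 and Sox2 were also present in these cells as retroviral inserts, and in summit lists reads of an insert and of the genomic exon cannot be told apart. For Sox17 and Pou3f1, which were not part of the Oct4-SK cocktail, the source of these reads was not tested. No day 5 Oct4 summit lay in an exon of these 4 genes. At day 1 Oct4 summits lay in exons of Pou5f1 (17.4), Sox2 (18.3 and 11.3) and Klf4 (33.7 and 12.2), the remaining gene of the cocktail, which had no day 5 summit of either factor in an exon in Oct4-SK cells. In Oct6 M151S-SK cells the Oct6 M151S summits in exons of Pou3f1 scored 344 and 112.

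Within 50 kb of their starts, 423 of 21911 coding genes (1.93%) had a co-bound site, 4072 (18.6%) an Oct4-alone summit and 4975 (22.7%) a Sox2-alone summit. Of the 423 genes, 408 had 1 co-bound site and 15 had 2. Against 1.93% of all coding genes, a co-bound site was found at 2 of 30 naive pluripotency genes (Pou5f1 and Il6st), 0 of 22 epithelial genes, 1 of 24 fibroblast and mesenchymal genes (Snai1) and 1 of 16 neural, Sox or POU genes (Sox21), counts too small to set a list apart. Sites of 1 factor are read against 18.6% and 22.7% of all coding genes: of the pluripotency genes 9 had an Oct4-alone summit, among them Sox2, Tfcp2l1, Tbx3, Tet1 and Dppa3, and 8 a Sox2-alone summit, among them Nanog, Klf2, Tet2 and Stat3. Of the 22 epithelial genes 3 had an Oct4-alone summit and 9 (40.9%) a Sox2-alone summit, among them Cdh1, Epcam, Krt8 and Krt18. Of the 24 fibroblast and mesenchymal genes 9 had an Oct4-alone summit, such as Twist1, Zeb2 and Col3a1, and 11 (45.8%) a Sox2-alone summit, such as Col1a1, Vim and Tgfbr2. Of the 16 neural, Sox or POU genes 6 (37.5%) had an Oct4-alone summit and 7 (43.8%) a Sox2-alone summit, Sox4, Sox9, Sox11 and Sox21 having both. A summit within 50 kb of several starts counted for each of those genes, and no list was tested against all coding genes.

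The co-bound site of Pou5f1 lay 1956 bp upstream of its start, with the Oct4 summit (score 26.2) at position 35504045 and the Sox2 summit (13.6) 34 bp away, around a SoxOct match with 2 mismatches and a Sox match. Oct4 was listed there at 44.7 on day 1 and 155 on day 7, and Sox2 at 7.34 on day 1. Oct4defSox2 (48.5) and Oct4 S151M (148) were also listed there on day 1, whereas no Oct4defSox2 summit of day 5 and no Sox2 summit of Oct6-SK or Oct4defSox2-SK cells at day 5 lay within 100 bp. The GFP reporter of OG2 cells carries upstream sequence of the same gene, so reads of the reporter and of the native locus cannot be told apart. The site of Il6st, which encodes the gp130 receptor subunit of LIF signalling, lay 23688 bp upstream in intergenic sequence with scores of 16.1 for Oct4 and 11.6 for Sox2. It had Oct4 summits at days 1 (13.1) and 7 (7.39), and an Oct4defSox2 summit at day 5 (15.3). The site of Snai1, a repressor of epithelial genes, lay 31230 bp upstream and scored 11.1 for Oct4 and 9.63 for Sox2, with an Oct4 summit at day 1 (7.00) and none at day 7.

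Of the 15 genes with 2 co-bound sites, the 5 whose sites had the highest mean score percentile are described. Maml2, a Notch coactivator gene, had them in an intron, 32711 and 37177 bp past its start, with scores of 18.0 and 16.2 for Oct4 and 8.19 and 28.4 for Sox2. Clock, a core gene of the circadian clock, Nmu and Pdcl2 shared the same pair of sites, both with SoxOct. The first of these, 16823 bp upstream of Clock with summits 100 bp apart, scored 17.1 for Oct4 and 19.1 for Sox2, and its Oct4 scores were 10.8 at day 1 and 26.9 at day 7. The second, 22694 bp upstream, scored 6.70 for Oct4 and 31.5 for Sox2, had no Oct4 summit at day 1 or 7 and had Sox2 summits at day 5 in Oct4defSox2-SK (55.4) and Oct6-SK cells (24.1). Both sites of Cdc42ep5 held SoxOct, and both had Oct4 summits at day 7 (32.8 and 26.7).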

How the data were processed

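ChIP-seq summit lists were used as deposited. The authors aligned paired-end reads to mm10 with Bowtie2 2.2.5 (version from the submitters’ processing notes), removed poorly mapped and duplicate reads with SAMtools and called peaks with MACS2 in each library, with several summits allowed per peak, and whether the inputs served as controls is not given in the sources used here. In the deposited files each summit carries the −log10 of its MACS2 p-value as its score. The 3 input libraries and the peak tables of Oct4 S151M and Oct6 M151S were not used here. The coordinates fit GRCm38, and 8 Oct4 and 39 Sox2 summits off chromosomes 1 to 19, X and Y were left out. Starts and exons came from GENCODE M21 (basic).

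A site counted as bound in another list when a summit lay within 100 bp. Motifs were strings searched for, on either strand, up to 100 bp from the summit, with up to 2 mismatches for SoxOct, 1 for MORE and MORE+1 and 0 for the octamer, Sox, AP-1 and Klf. The named sites were the 10 co-bound sites with the highest mean score percentile, the 5 highest-scoring Oct4-alone and Sox2-alone summits, the 5 coding genes with most co-bound sites within 50 kb (ties by mean score percentile) and members of 4 gene lists with such a site. The members and lists were chosen with earlier results of these data known, and splits by motif and score were chosen after the data had been seen. Alternatives were co-binding at 50 or at 250 bp, only summits scoring 10 or more, the 2000 strongest summits of each list, 1 summit per peak, leaving out sites met by Oct6 M151S, 1 mismatch more or fewer, motif windows of 50 bp, a promoter distance of 5 kb, the top 10% of scores, 250 bp for other lists and 100 kb to the gene start. The code ran under Python 3.11.15 (pandas 2.3.3, numpy 2.4.6, pysam 0.24.0, scipy 1.17.1) with samtools 1.23.1 and was tested on simulated data.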

Additional observations from a re-analysis of the deposited data

How the results depend on the processing

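Under 13 alternatives, all 69 recomputed values of 9 differences whose interval excluded 0 (top 25% of scores, SoxOct, MORE, Oct4 and Sox2 at day 1, Oct4 at day 7 and Sox2 in Oct6-SK cells at day 5) kept their sign and an interval that excluded 0. Of 42 recomputed values of 6 differences whose interval included 0, 35 still included it. Location other than promoters, the Sox, AP-1 and octamer motifs, the remaining lists and the splits by motif were not recomputed. With 50 bp for co-binding, 5.96% of Oct4 and 4.99% of Sox2 summits were co-bound, with a median spacing of 25 bp, near 273 coding genes, and with 250 bp 13.4% and 11.1%, with a median spacing of 60 bp. A score of at least 10 gave 7.98% and 7.38% and 153 genes, the 2000 strongest summits of each gave 7.50% of Oct4 summits and 126 genes, and leaving out sites met by Oct6 M151S gave 8.64% and 7.27%. With 100 kb to the gene start, 808 genes had a co-bound site. The Klf motif difference from Oct4-alone had an interval above 0 with 50 bp (2.12 points), the 2000 strongest (3.37), 1 summit per peak (1.74) and without Oct6 M151S sites (2.03), and the promoter difference from Sox2-alone was −3.09 points with 250 bp. The difference in Sox2 of Oct4defSox2-SK cells at day 5 changed sign, to −18.4 points with a score of at least 10 and −22.8 with the 2000 strongest. With 1 mismatch fewer, 72.7% of 33 pairs had the Sox2 summit on the Sox side, while with 50 bp (59.3%) and the 2000 strongest (61.9%) the interval included 50%. The causes were not tested. No paired analysis was possible because each group held 1 library. Unknown read depth limits all shares: a site missing from a list may be bound below its threshold.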
